A study of Arabidopsis thaliana with 72 samples.

Results

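The Casparian strip genes of the root endodermis described here are 8 loci of Arabidopsis thaliana, chosen by locus name from the 27206 loci of the count table. They are CASP1 (AT2G36100), CASP2 (AT3G11550), CASP4 (AT5G06200), CASP5 (AT5G15290), ESB1 (AT2G28670), MYB36 (AT5G57620), GSO1 (AT4G20140, also called SGN3) and PER64 (AT5G42180). RNA was sequenced from whole seedlings of the wild-type accession Col-0 and of phr1 phl1, a double mutant in PHR1 and PHL1, the related MYB transcription factors that switch on phosphate starvation genes. Johnson medium with 1% sucrose and 1 mM phosphate carried the seedlings for their first 7 days. They then spent 12 days either at 1 mM phosphate (high Pi) or at low Pi, where traces in the agar left about 5 µM. During those 12 days the medium held no addition (untreated), 10 µM methyl jasmonate (MeJA), a defence and wound hormone, or 1 µM flg22, a flagellin peptide that plants sense as a sign of bacteria. All seedlings shared the sucrose, the agar and a cycle of 9 h light and 15 h dark. The 72 libraries formed 12 groups, with 3 per group from each of the experiments A and B. The mutant alleles are not given in the sources used here.

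The Casparian strip is a ring of lignin in the walls between endodermal cells that stops solutes from passing between root cells on their way to the stele. MYB36 is the transcription factor that starts strip formation. CASP proteins gather in the plasma membrane at the future strip and hold the wall-building machinery there. ESB1, a dirigent-domain protein, and PER64, a peroxidase, take part in lignin deposition at the strip. GSO1 is the receptor kinase that senses the peptides CIF1 and CIF2 and reports whether the barrier is sealed. These genes are known from root endodermis, a small share of the cells of a seedling, so in whole-seedling RNA fewer endodermal cells and less RNA per cell cannot be told apart.

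Replicate B1 of untreated phr1 phl1 at high Pi, going by its label, was left out, and 71 libraries were used. Over all genes tested, its log2 level correlated with the mean of its own group at 0.937, and with the means of 4 MeJA groups at 0.958 to 0.980. Its levels of CASP1, CASP2 and PER64 lay under the range of the other 5 libraries of its group. Depth lay between 692426 and 6883818 counts a library, with the lowest median (1749954.5) in Col-0 high Pi MeJA. PHR1 ranged from 49.0 to 74.0 CPM (counts scaled to library size) in 36 Col-0 libraries and from 12.9 to 44.4 CPM in 35 phr1 phl1 libraries. PHL1 ranged from 6.59 to 20.3 CPM in Col-0 and from 30.9 to 126.5 CPM in the mutant. These PHL1 ranges did not overlap, and its counts were higher in the mutant, not lower.

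The 8 genes lie apart from each other on 4 chromosomes, per the RefSeq annotation of TAIR10.1. CASP1 is at chr2:15159591-15160799 on the minus strand, CASP2 at chr3:3638178-3639348 (plus), CASP4 at chr5:1877134-1878324 (plus) and CASP5 at chr5:4967011-4968092 (plus). ESB1 is at chr2:12300265-12302358 (minus), MYB36 at chr5:23334767-23336632 (plus), GSO1 at chr4:10883921-10888270 (plus) and PER64 at chr5:16852628-16854224 (plus). The 250 bases before the gene start are shown for CASP1, CASP2 and CASP4, the family members with most of the changes described below. Capitals mark TTGACC or TTGACT on either strand, forms of the W-box that WRKY factors of defence bind.
CASP1: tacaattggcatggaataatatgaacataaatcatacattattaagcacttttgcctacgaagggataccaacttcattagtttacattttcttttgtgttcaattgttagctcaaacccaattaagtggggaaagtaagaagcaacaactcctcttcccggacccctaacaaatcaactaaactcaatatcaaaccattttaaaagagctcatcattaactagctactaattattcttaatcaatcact
CASP2: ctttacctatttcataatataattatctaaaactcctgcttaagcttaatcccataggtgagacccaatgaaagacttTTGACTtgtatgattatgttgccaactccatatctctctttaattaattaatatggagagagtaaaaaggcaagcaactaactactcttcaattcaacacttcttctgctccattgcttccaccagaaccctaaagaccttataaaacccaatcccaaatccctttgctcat
CASP4: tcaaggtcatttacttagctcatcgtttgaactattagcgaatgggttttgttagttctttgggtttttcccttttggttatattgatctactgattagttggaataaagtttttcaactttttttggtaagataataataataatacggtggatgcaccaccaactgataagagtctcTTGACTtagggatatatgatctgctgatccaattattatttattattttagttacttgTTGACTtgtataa
The CASP1 stretch held neither form, the CASP2 stretch 1 TTGACT and the CASP4 stretch 2 TTGACT. Among all 8 genes, 3 held TTGACT, against 19.1% of 27443 protein-coding genes, and 1 held TTGACC, against 12.2%. The PHR1 binding motif P1BS (GNATATNC, its own reverse complement) was in 0 of the 8 stretches, against 5.46% of all, and the G-box CACGTG, also a palindrome, in 0, against 6.49%. A match of letters is not a site in use, and no match covers these 250 bases alone.

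The CASP coding sequences differed enough to be counted apart over most of their length. Identity between pairs ran from 60.8% (CASP4 and CASP5, 337 of 554 aligned bases) to 80.6% (CASP2 and CASP4, 491 of 609). The longest run of bases shared by any pair was 20 long, ctccgtttagctgccattgt, in CASP2 and CASP4.

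CASP1 stood highest of the set per length of exon. Median levels over the 71 libraries were 21.6 CPM per kb of exon for CASP1, 9.29 for PER64, 7.31 for CASP2, 3.93 for CASP4, 3.45 for GSO1 and 3.28 for MYB36. These 6 genes passed the filter on low counts and were tested, while CASP5 and ESB1 did not pass it. Counts per library ran from 12 to 242 for CASP1, the deepest of the CASP genes, and CASP4 rested on far fewer reads (37 over the 6 Col-0 high Pi MeJA libraries and 204 over the 6 Col-0 low Pi untreated libraries).

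CASP5 had 0 to 8 reads per library, 129 in all, and none in 19 libraries. Its reads were fewest under MeJA, with 22 in the 24 MeJA libraries (14 of them at 0), 58 in 23 untreated libraries (2 at 0) and 49 in 24 flg22 libraries (3 at 0). In a fit with no count filter, added here only for the genes that the filter removed, the MeJA difference averaged over 4 backgrounds was -1.25 ± 0.45 (log2, SE) with an edgeR adjusted p of 0.024. No other of its comparisons passed the threshold in that fit.

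ESB1 had 0 to 5 reads per library, 120 in all, with a median level of 0.388 CPM. By treatment, its reads numbered 41 in untreated, 38 in MeJA and 41 in flg22 libraries. They were less even over groups, with 3 in phr1 phl1 high Pi untreated (5 libraries) and 14 in phr1 phl1 low Pi untreated (6 libraries). In the fit with no count filter, that difference had an edgeR adjusted p of 0.081. The annotation places AT2G28671 on the opposite strand across 1459 of the 1731 exon bases of ESB1 (84.3%), leaving 272 bases of its own. The libraries did not keep strand, and AT2G28671 itself had 4 reads in all. Whether reads in the shared bases were dropped in counting was not tested, so the ESB1 values are not read as its level. The other overlaps with a gene on the opposite strand were short, with 49 exon bases for CASP1, 337 for GSO1, 34 for PER64 and 4 for CASP5.

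**Figure D1:**
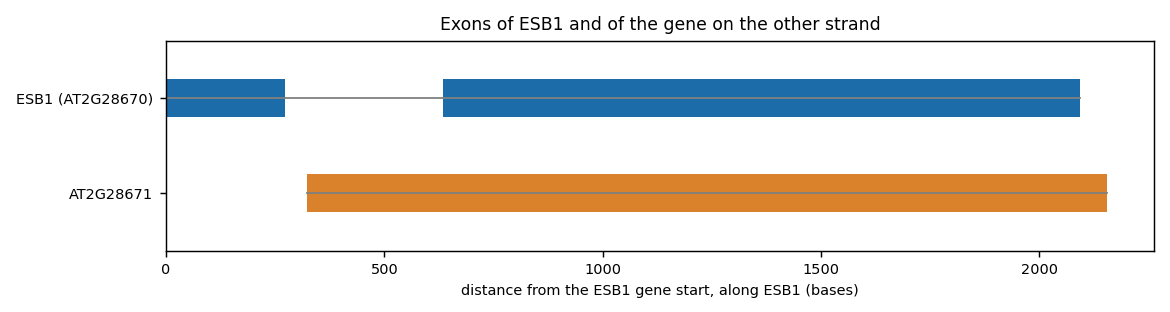
Exons (bars) of ESB1 and of AT2G28671, the gene on the opposite strand, by distance in bases from the ESB1 gene start. The long ESB1 exon of 1459 bases lies wholly within AT2G28671, and the exon of 272 bases does not.

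Among the 12 groups, untreated Col-0 at low Pi had the highest mean of 5 of the 6 tested genes (CASP1, CASP2, CASP4, GSO1 and PER64), as the plot of levels by library shows. Levels below are means ± SD over the 6 libraries of a group (5 in phr1 phl1 high Pi untreated), in order of the mean. CASP1 ran from 34.0 ± 7.78 CPM in Col-0 low Pi untreated and 22.9 ± 4.85 CPM in Col-0 high Pi untreated down to 14.2 ± 3.40 CPM in Col-0 high Pi MeJA. CASP2 ran from 13.7 ± 3.56 CPM in Col-0 low Pi untreated and 9.60 ± 1.45 CPM in phr1 phl1 low Pi untreated down to 5.33 ± 1.73 CPM in Col-0 high Pi MeJA. For both genes, the step from the highest to the next group was the only step of 11 that was larger than the SD of each group beside it. CASP4 had the same kind of step, from 7.74 ± 2.18 CPM in Col-0 low Pi untreated to 4.80 ± 2.26 CPM in Col-0 low Pi MeJA, and ended at 2.88 ± 1.64 CPM in phr1 phl1 high Pi flg22.

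GSO1, MYB36 and PER64 had no step between neighbouring groups that was larger than the SD of either one. GSO1 ran from 20.4 ± 3.38 CPM in Col-0 low Pi untreated to 11.0 ± 1.58 CPM in Col-0 high Pi MeJA, and its 4 lowest means were those of the 4 MeJA groups. PER64 ran from 16.7 ± 3.77 CPM in Col-0 low Pi untreated to 9.42 ± 1.57 CPM in phr1 phl1 low Pi flg22. MYB36 was ordered differently, with the 4 MeJA groups as its 4 highest means, from 5.80 ± 1.88 CPM in phr1 phl1 low Pi MeJA to 2.90 ± 1.10 CPM in Col-0 high Pi untreated.

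**Figure D2:**
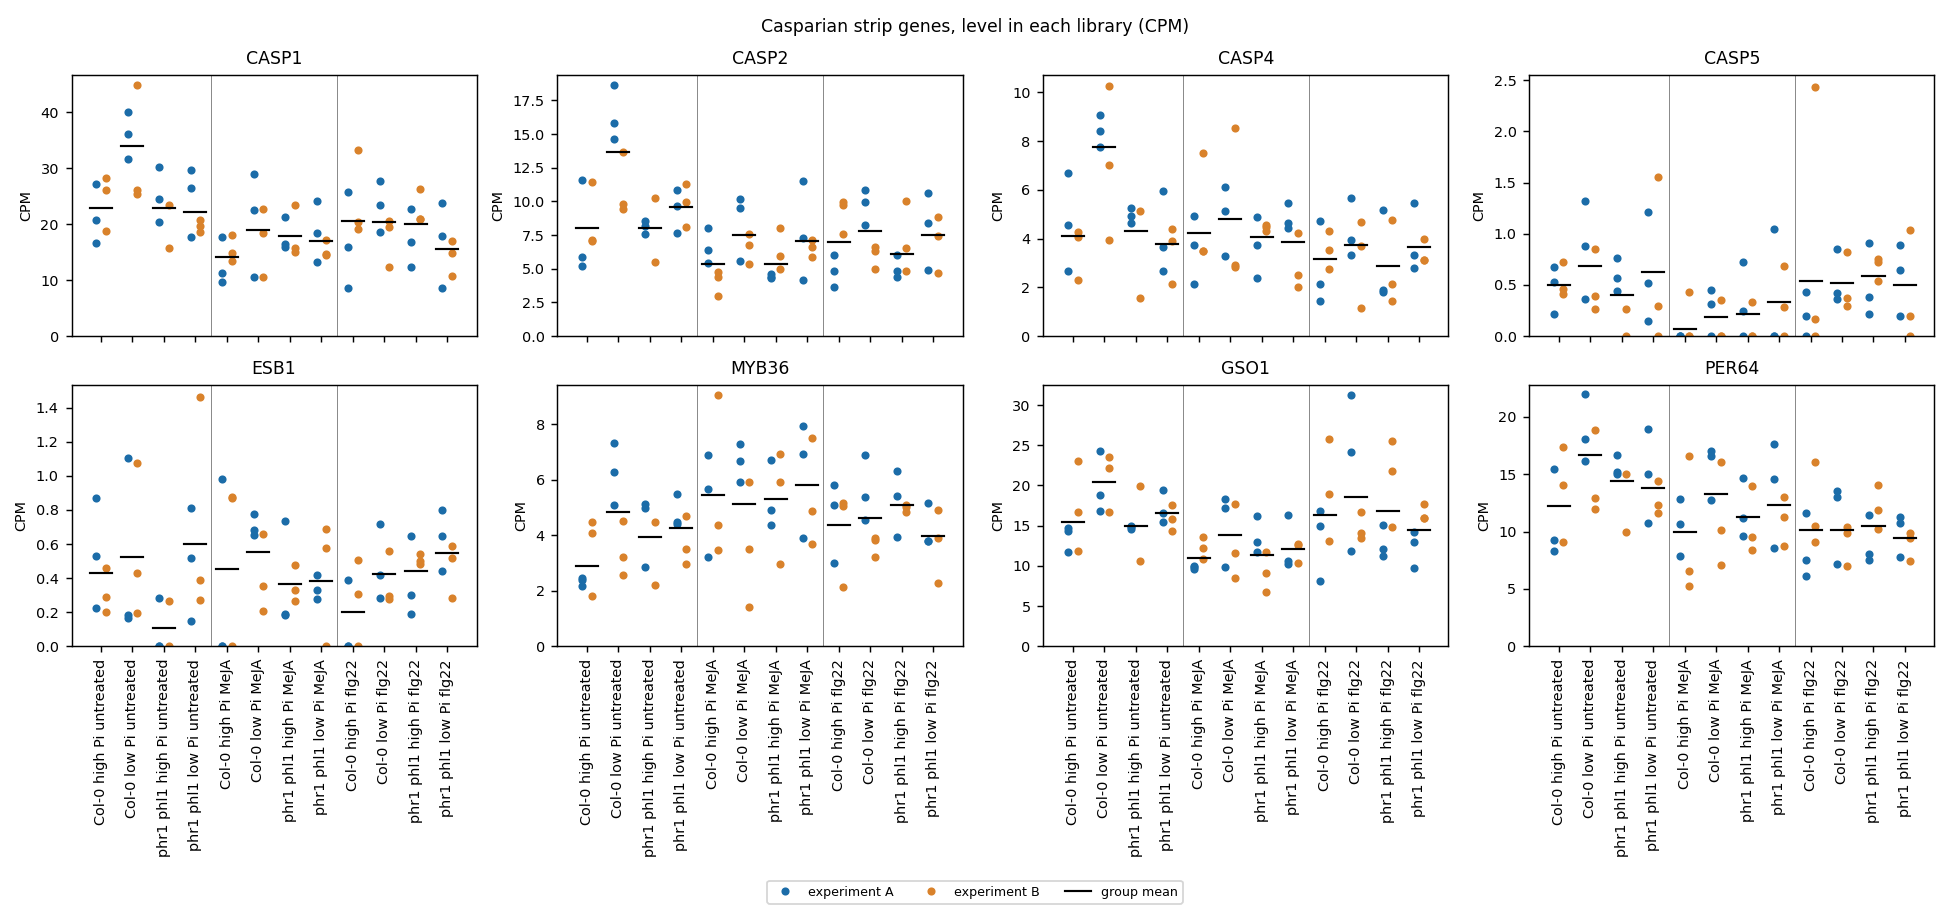
Level of each of the 8 genes in CPM (linear axis from 0) in each library of the 12 groups; points are libraries coloured by experiment and bars are group means. CASP1, CASP2 and CASP4 have their highest mean in untreated Col-0 at low Pi, and CASP5 and ESB1 stay near 0.

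Of 120 tests (6 genes in 20 comparisons of 2 groups), 10 passed the threshold of an adjusted p under 0.05 in edgeR's quasi-likelihood test, adjusted by Benjamini-Hochberg over 18693 genes. In all 120, the ranges of the groups compared overlapped, and how often the ranges of all genes did so was not counted. Untreated Col-0 at low Pi was a group in 9 of the 10, although it takes part in only 4 of the 20 comparisons. Those 4 comparisons share its 6 libraries, so their results are not independent of each other, and their values are given side by side.

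Low Pi raised CASP2 and CASP4 in untreated Col-0. CASP2 had a lowest, median and highest level of 5.23, 7.11 and 11.6 CPM at high Pi and of 9.42, 14.2 and 18.6 CPM at low Pi. At low Pi, 4 libraries (A1, A2, A3 and B1) lay above the high Pi range and B2 and B3 within it. The log2 change was 0.80 ± 0.22 (SE), 1.74 times the high Pi level, with an adjusted p of 0.0078. CASP4 had 2.28, 4.16 and 6.71 CPM at high Pi and 3.93, 8.09 and 10.3 CPM at low Pi, where 5 of 6 libraries lay above the high Pi range and replicate B3 within it. Its change was 0.84 ± 0.27 (adjusted p = 0.027), and without single libraries, among them low Pi A1 and A2, the adjusted p reached 0.090.

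Those 2 of 6 genes stand against 15.5% of all genes called in this comparison. Without adjustment, 4 of the 6 had a p under 0.05. Here and below, shares of all genes called are at an adjusted p, and none is given at an unadjusted p. DESeq2 called 3, adding MYB36. The other 4 genes had positive values between 0.37 and 0.67, CASP1 with 0.53 ± 0.21 (adjusted p = 0.076) and MYB36 with 0.67 ± 0.26 (adjusted p = 0.064). The median of the 6 was 0.60 and that of all genes was -0.01. The changes were larger in experiment A than in experiment B. Over all genes, 6390 of 18913 were called here in experiment A alone and 105 of 18792 in experiment B alone. CASP2 changed by 1.13 in experiment A (adjusted p = 0.00072) and by 0.39 in experiment B (0.88), and CASP4 by 0.85 (0.041) and 0.80 (0.76). MYB36, the regulator, had 1.43 in experiment A (adjusted p = 0.00028) and -0.08 in experiment B (1). PER64 had 0.80 (adjusted p = 0.011) and -0.02 (1).

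In the other 5 comparisons of phosphate supply, edgeR and DESeq2 each called 0 of the 6 genes, with no DESeq2 adjusted p for CASP4 and MYB36 in Col-0 with MeJA. The share of all genes called was 5.38% in Col-0 with MeJA, 15.0% in Col-0 with flg22, 12.3% in untreated phr1 phl1, 3.02% in phr1 phl1 with MeJA and 10.3% in phr1 phl1 with flg22. An unadjusted p under 0.05 was found for 1 gene with MeJA in Col-0 (PER64, 0.52 ± 0.25) and for 0 in the other 4. In untreated phr1 phl1 the 6 values lay between -0.21 and 0.26. The experiments differed again in Col-0 with flg22, where the median of the 6 genes was 0.71 in experiment A and -0.37 in experiment B. In experiment A alone, CASP2 (1.08, adjusted p = 0.0088) and GSO1 (0.86, 0.011) rose there. That comparison called 4923 of 18913 genes in experiment A alone and 388 of 18792 in experiment B alone.

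MeJA lowered CASP1 in Col-0 under either phosphate supply, and CASP2 at low Pi. In the high Pi groups, CASP1 had a lowest, median and highest level of 16.7, 23.4 and 28.2 CPM without treatment and of 9.64, 14.2 and 18.1 CPM with MeJA, and only the top 2 MeJA libraries reached into the untreated range. Its log2 change was -0.77 ± 0.26 (adjusted p = 0.039, up to 0.12 with a library left out). At low Pi, CASP1 had 25.3, 33.9 and 44.9 CPM without treatment and 10.5, 20.5 and 29.1 CPM with MeJA, with 1 MeJA library (A1) inside the untreated range. The change was -0.81 ± 0.22 (adjusted p = 0.0053).

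CASP2 at low Pi had 9.42, 14.2 and 18.6 CPM without treatment and 5.38, 7.15 and 10.2 CPM with MeJA, where A1 and A2 reached into the untreated range, a change of -0.85 ± 0.22 (adjusted p = 0.0033). These falls were of like size in both experiments. CASP1 at low Pi changed by -0.74 in experiment A (adjusted p = 0.16) and -0.81 in experiment B (0.027), and CASP2 by -0.91 (0.013) and -0.70 (0.10). CASP1 at high Pi changed by -0.79 (0.28) and -0.73 (0.15).

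These calls, 1 of 6 at high Pi and 2 of 6 at low Pi, stand against 13.2% and 14.2% of all genes. In phr1 phl1 with MeJA, edgeR and DESeq2 each called 0 of 6, against 18.2% (high Pi) and 17.0% (low Pi) of all genes, with an unadjusted p under 0.05 for 1 gene (CASP2 at high Pi, -0.57 ± 0.25) and for 0. CASP1 had -0.35 ± 0.23 (high Pi) and -0.37 ± 0.23 (low Pi) in the mutant, and the test of the difference from Col-0 is given with the interactions. The receptor gene GSO1 had values between -0.55 and -0.41 in all 4 backgrounds, and none passed the threshold alone. MYB36 went the other way, with values of 0.68, 0.06, 0.41 and 0.43, none past the threshold in both experiments together. In experiment A alone it rose in Col-0 at high Pi (1.16, adjusted p = 0.034), and experiment B gave 0.36 (0.76). CASP2 fell in phr1 phl1 at high Pi in experiment A alone (-0.85, adjusted p = 0.044), and experiment B gave -0.27 (0.65).

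flg22 lowered CASP1, CASP2, CASP4 and PER64 in Col-0 at low Pi. CASP4 had 3.93, 8.09 and 10.3 CPM without treatment and 1.17, 3.83 and 5.67 CPM with flg22, and changed by -1.01 ± 0.28 (adjusted p = 0.025), a level 0.497 times that without treatment. Of its flg22 libraries, A1, A2 and B3 lay within the untreated range. CASP2 had 4.97, 7.42 and 10.9 CPM with flg22, with A1 and A3 inside the untreated range, and changed by -0.81 ± 0.22 (adjusted p = 0.020). CASP1 had 12.3, 20.1 and 27.8 CPM with flg22, with A1 inside the untreated range, and changed by -0.72 ± 0.22 (adjusted p = 0.039). PER64, the peroxidase, had 12.0, 17.1 and 22.0 CPM without treatment and 7.02, 10.1 and 13.6 CPM with flg22, where A1 and A3 overlapped, and changed by -0.68 ± 0.21 (adjusted p = 0.041). GSO1 had -0.11 ± 0.20 and MYB36 -0.10 ± 0.25.

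The 4 calls of 6 stand against 4.45% of all genes, and DESeq2 made the same number. Within experiments the values were close, with none past the threshold. CASP4 changed by -0.97 in experiment A (adjusted p = 0.097) and -1.02 in experiment B (0.30), CASP2 by -0.74 (0.088) and -0.83 (0.11), CASP1 by -0.62 (0.31) and -0.82 (0.075), and PER64 by -0.70 (0.10) and -0.61 (0.35). Each of the 4 calls was lost when certain single libraries were left out, and without Col-0 low Pi untreated A2 or Col-0 low Pi flg22 B1 all of them were.

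In the other 3 flg22 comparisons edgeR and DESeq2 each called 0 of 6, against 0.979% of all genes in Col-0 at high Pi, 4.62% in phr1 phl1 at high Pi and 3.38% in phr1 phl1 at low Pi. An unadjusted p under 0.05, for which no share of all genes is given, was found for 1, 1 and 2 genes. These were MYB36 in Col-0 at high Pi (0.54 ± 0.26), PER64 in the mutant at high Pi (-0.44 ± 0.22) and CASP1 (-0.53 ± 0.23) and PER64 (-0.54 ± 0.21) in the mutant at low Pi. In experiment A alone, MYB36 passed in Col-0 at high Pi (1.07, adjusted p = 0.030), and experiment B gave 0.16 (0.97). That comparison called 1659 of 18913 genes in experiment A alone and 50 of 18792 in experiment B alone.

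Between genotypes, 1 difference passed. CASP4 stood lower in the untreated mutant at low Pi than in Col-0. Its levels there were 2.16, 3.77 and 5.96 CPM in the mutant against 3.93, 8.09 and 10.3 CPM in Col-0. The difference was -1.03 ± 0.28 (adjusted p = 0.021), with -1.09 in experiment A (adjusted p = 0.043) and -0.95 in experiment B (0.65). Over all genes, 1057 of 18913 were called in experiment A alone and 112 of 18792 in experiment B alone. Leaving out Col-0 A1 or mutant A1, A2 or B1 ended the call (adjusted p up to 0.11). All 6 genes had values below 0 in this comparison, CASP1 with -0.60 ± 0.22 (adjusted p = 0.12) and CASP2 with -0.53 ± 0.22 (0.20), and 3 had an unadjusted p under 0.05. The share of all genes called, at an adjusted p under 0.05, was 3.69%, and none is given for an unadjusted p. In the other 5 genotype comparisons edgeR and DESeq2 called 0 of 6, with 0 at an unadjusted p under 0.05. All genes were called at 0.0642%, 0.134% and 0.177% at high Pi (untreated, MeJA, flg22) and at 4.96% and 0.476% at low Pi (MeJA, flg22).

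**Figure D3:**
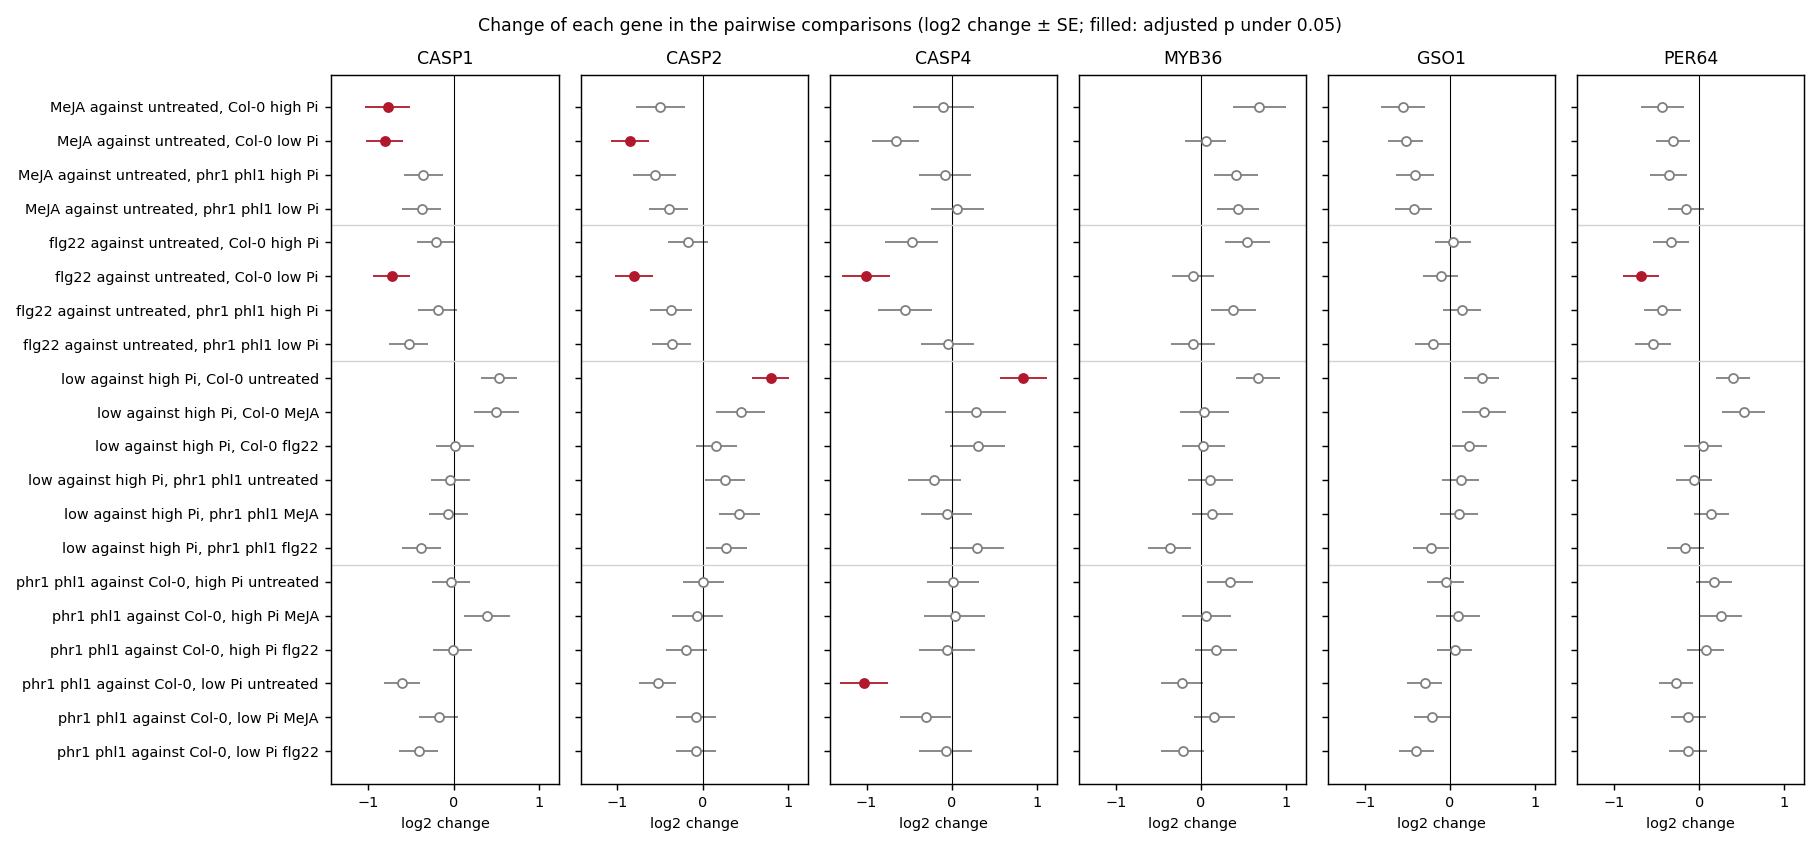
Log2 change ± SE of the 6 tested genes (columns) in the 20 pairwise comparisons (rows), from edgeR; filled points have an adjusted p under 0.05. The filled points number 10, and 9 of them are in comparisons with untreated Col-0 at low Pi.

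The tests of differences between these responses called none of the 6 genes in any of 9 interactions, in edgeR or DESeq2. Few genes of the whole table passed either, with 0.519% for genotype by phosphate without treatment, 0% for genotype by MeJA and genotype by flg22 at high Pi and phosphate by MeJA in phr1 phl1, 0.0107% for phosphate by MeJA and by flg22 in Col-0, and 0.0160% for the other 3. CASP4 had the 2 values with an unadjusted p under 0.05. The mutant's response to low Pi minus that of Col-0 was -1.04 ± 0.42 (adjusted p = 0.41), and for flg22 at low Pi the same difference was 0.96 ± 0.42 (adjusted p = 1). For CASP1 with MeJA it was 0.42 ± 0.35 at high Pi and 0.43 ± 0.31 at low Pi. Of these 4 values, the one at high Pi does not contain untreated Col-0 at low Pi, and the other 3 do. A response past the threshold in Col-0 and not in phr1 phl1 is not shown to differ between them.

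Averages over backgrounds, added after the pairwise results were seen, put more libraries behind each value. The MeJA and flg22 averages are set against the same untreated libraries, among them those of untreated Col-0 at low Pi. Their results are therefore not independent of each other. Averaged over the 4 backgrounds, MeJA lowered CASP1 (-0.58 ± 0.12, adjusted p = 4.4e-05), CASP2 (-0.58 ± 0.12, 9.7e-05), GSO1 (-0.48 ± 0.11, 0.0004) and PER64 (-0.31 ± 0.11, 0.017). MYB36 rose by 0.40 ± 0.13 (adjusted p = 0.013), and CASP4 had -0.19 ± 0.16 (0.35). Of all genes, 39.8% were called in this average, so 5 of 6 is read against a wide response.

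Averaged in the same way, flg22 lowered CASP4 (-0.52 ± 0.15, adjusted p = 0.0094), PER64 (-0.50 ± 0.11, 0.0003), CASP2 (-0.43 ± 0.12, 0.005) and CASP1 (-0.41 ± 0.11, 0.005), 4 of 6 against 22.4% of all genes. GSO1 had -0.04 ± 0.11 and MYB36 0.18 ± 0.13. DESeq2 gave the same counts, 5 for MeJA and 4 for flg22. In experiment B alone, none of the flg22 averages passed, with PER64 at -0.36 (adjusted p = 0.14) against -0.62 in experiment A (0.00042), where the other 3 genes passed as well. Over all genes, the flg22 average called 5095 of 18913 in experiment A alone and 1360 of 18792 in experiment B alone. For MeJA, CASP1 (-0.59 and -0.49), CASP2 (-0.56 and -0.59) and GSO1 (-0.34 and -0.60) passed in each experiment alone. PER64, called with both experiments together, passed in neither alone. MYB36 had 0.48 in experiment A (adjusted p = 0.012) and 0.38 in experiment B (0.20).

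Averaged over 6 backgrounds, low Pi raised CASP2 (0.40 ± 0.10, adjusted p = 0.00076), 1 of 6 against 49.8% of all genes. Here the experiments parted, with all 6 genes past the threshold and positive in experiment A (0.35 to 0.72) and none in experiment B (-0.16 to 0.11). The whole table parted too, with 11164 of 18913 genes called in experiment A alone and 1998 of 18792 in experiment B alone. The cause was not tested. The average difference between phr1 phl1 and Col-0 called 0 of 6 in edgeR and DESeq2, with 0 at an unadjusted p under 0.05, against 13.2% of all genes.

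**Figure D4:**
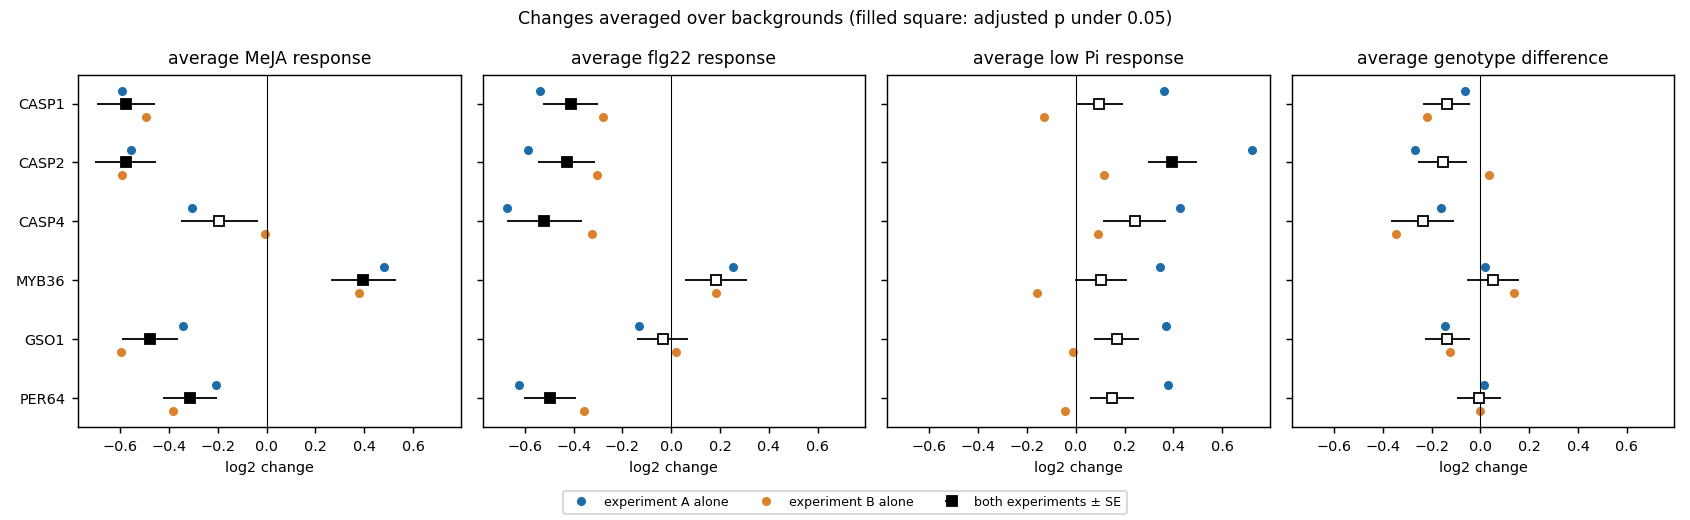
Log2 change of the 6 tested genes averaged over 4 backgrounds (MeJA, flg22) or 6 (low Pi, genotype); squares with SE bars are from both experiments, filled where the adjusted p is under 0.05, and circles are each experiment alone. The low Pi circles of experiment A lie between 0.35 and 0.72 and those of experiment B between -0.16 and 0.11.

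Other genes of strip formation, 21 chosen for their known parts in it, were all tested. In untreated Col-0, low Pi raised 6 of them and lowered 1, against 15.5% of all genes called. The median was 0.39, with 0.60 in experiment A alone and 0.21 in experiment B alone. UCC1, a blue copper protein of the strip (0.98 ± 0.23, adjusted p = 0.0019), SGN1, the kinase that acts with GSO1 (0.92 ± 0.24, 0.0045), DIR24, a dirigent protein (0.74 ± 0.24, 0.025) and PER72, a peroxidase (0.69 ± 0.22, 0.023) were among those that rose. In Col-0 at low Pi, MeJA lowered 5 and raised 1, against 14.2% of all genes called. PER72 (-1.02 ± 0.23, adjusted p = 0.00047), DIR18 (-0.83 ± 0.26, 0.022), DIR24 (-0.78 ± 0.24, 0.019) and DIR9 (-0.77 ± 0.23, 0.014) had the largest falls. flg22 in Col-0 at low Pi lowered 2, PER72 (-0.83 ± 0.22, 0.018) and PER3 (-0.76 ± 0.15, 0.00086), against 4.45% of all genes called.

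Averaged over 4 backgrounds, MeJA raised 5 of the 21 and lowered 7, where 39.8% of all genes were called. GSO2, the close relative of GSO1 (-1.04 ± 0.21, adjusted p = 3.9e-05), and MYB68, a MYB of root endodermis development (-0.84 ± 0.12, 2.1e-08), fell, while PER39, a peroxidase (0.64 ± 0.11, 1.6e-06), rose.

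Genes of suberin, the fatty polymer that coats older endodermal cells, fell in part with MeJA. Of 20 listed, 15 passed the filter, and MeJA lowered 7 in Col-0 at high Pi, 4 in Col-0 at low Pi, 9 in phr1 phl1 at high Pi and 5 in phr1 phl1 at low Pi, and raised 0. In that order, 13.2%, 14.2%, 18.2% and 17.0% of all genes were called. CYP86B1, a fatty acid hydroxylase (-1.23 ± 0.16 averaged, adjusted p = 2.5e-09), FAR5, a fatty acyl reductase (-1.09 ± 0.10, 9.8e-15), and ABCG6, a transporter of suberin (-1.08 ± 0.13, 5.7e-11), were among those that fell most. The averaged flg22 response lowered 9 of the 15 and raised 0, against 22.4% of all genes called. Its median over the 15 was -0.59 in experiment A alone and -0.11 in experiment B alone.

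Some genes of lignin monomer synthesis fell at low Pi. Of 16 tested, low Pi in untreated Col-0 lowered 7 and raised 0, against 15.5% of all genes called. It lowered 1 in Col-0 with MeJA, 6 in Col-0 with flg22, and 2, 0 and 2 in phr1 phl1 (untreated, MeJA, flg22). In that order, 5.38%, 15.0%, 12.3%, 3.02% and 10.3% of all genes were called. Among those that fell in untreated Col-0 were PAL2, an entry enzyme of the pathway (-1.20 ± 0.26, adjusted p = 0.00093), and 4CL1, a ligase of it (-0.85 ± 0.25, 0.014). In that comparison the list had a median of -0.68 in experiment A and of 0.00 in experiment B. MeJA on average raised 6 and lowered 2 (39.8% of all genes called), with CSE (0.59 ± 0.05, adjusted p = 7.5e-16) up and CCR2 (-0.63 ± 0.13, 4.7e-05) down.

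Markers of other cells changed in some of the same comparisons as the strip genes, and not always in the same direction. At low Pi in untreated Col-0, 8 of 8 root hair genes rose, against 15.5% of all genes called (median 1.07, 1.18 in experiment A and 0.92 in experiment B). Their summed level ran from 92.5 to 159.0 CPM over the Col-0 high Pi untreated libraries, from 151.1 to 350.6 CPM at low Pi, and from 64.7 to 153.3 CPM in phr1 phl1 low Pi untreated. With flg22 in Col-0 at low Pi, 2 of 8 fell, against 4.45% of all genes called. These were RHD6 (-1.35 ± 0.27, adjusted p = 0.00092) and EXPA18 (-0.76 ± 0.23, 0.035), and the summed level of the 8 ran from 118.0 to 287.4 CPM. With MeJA in Col-0 at low Pi, 0 of 8 were called, against 14.2% of all genes, and the sum ran from 118.3 to 281.9 CPM. On average MeJA raised 5 of 8 and lowered 0, against 39.8% of all genes called, and flg22 raised 3 and lowered 1, against 22.4%. In untreated plants at low Pi, where CASP4 stood lower in phr1 phl1, 6 of 8 root hair genes stood lower too and 0 higher (median -1.11, 3.69% of all genes called). In the interaction of genotype and phosphate without treatment, 3 of 8 were called, against 0.519% of all genes, with a median of -1.18 for the 8. Their part in the strip gene results was not tested.

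Green tissue genes, expressed in shoots, were all tested (20 of 20). At low Pi in untreated Col-0, 8 rose and 1 fell, against 15.5% of all genes called. The sum of the 20 genes ran from 87244 to 106073 CPM at high Pi and from 85675 to 128661 CPM at low Pi. With MeJA on average 12 fell and 0 rose, against 39.8% of all genes called. Between genotypes on average 16 were lower in phr1 phl1 and 0 higher, against 13.2% of all genes. Of 9 xylem and stele genes 8 were tested (VND7 was under the filter). At low Pi in untreated Col-0, 1 of the 8 fell, against 15.5% of all genes called. Their summed level ran from 153.8 to 214.2 CPM at high Pi and from 164.1 to 200.6 CPM at low Pi. Of 5 root tip genes 4 were tested (WOX5 was under the filter), and 0 were called there. Every listed marker had reads in some library. The part of any of these tissues in the strip gene changes was not tested.

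**Figure D5:**
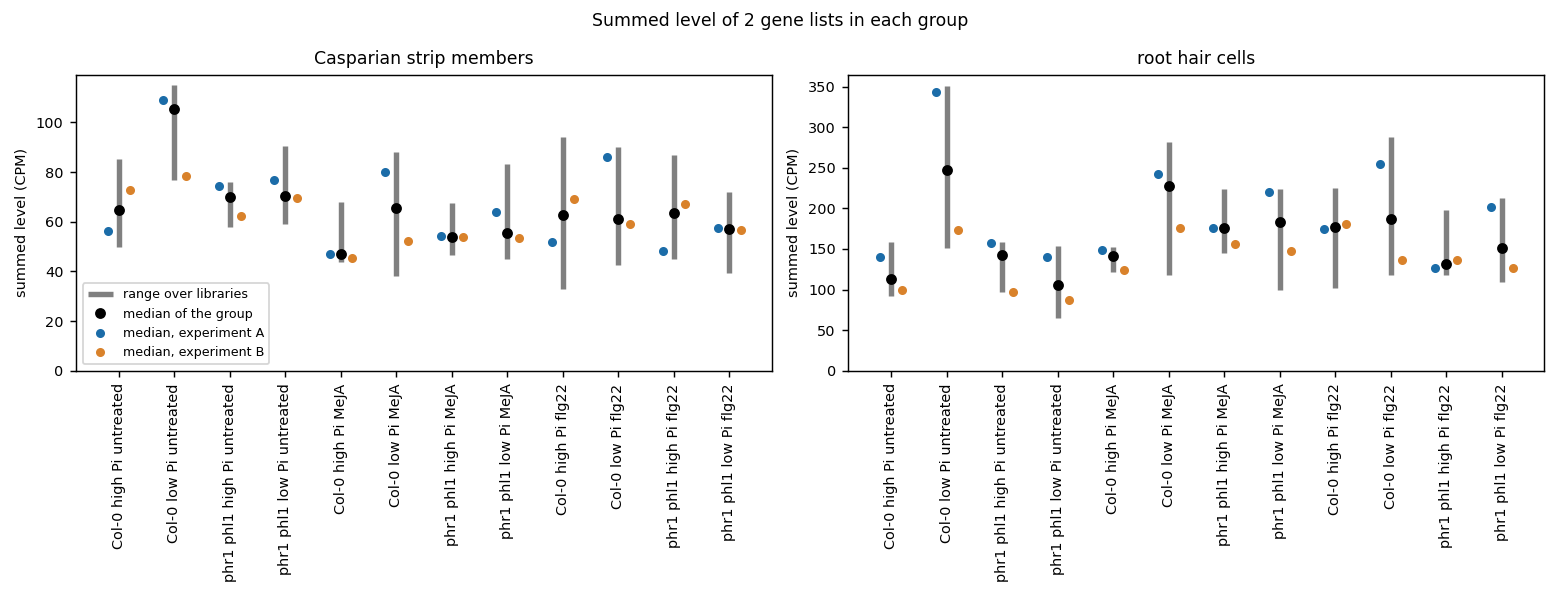
Summed level in CPM (linear axis from 0) of the 8 Casparian strip genes (left) and of 8 root hair genes (right) in each of the 12 groups; bars span the libraries, black points are medians and coloured points are medians within each experiment. Both sums have their highest group median in untreated Col-0 at low Pi.

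The 6 tested genes varied together from library to library to different degrees. Over 71 libraries, with the mean of each experiment removed, Pearson's r of log2 CPM between pairs ran from -0.07 to 0.76, with a median of 0.51, the highest for CASP1 and PER64. Each of CASP1, CASP2, CASP4, GSO1 and PER64 had an r between 0.60 and 0.81 with the mean of the other genes, and MYB36 had 0.15. The libraries share groups and treatments, so these values describe the whole design.

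Among 18686 other genes, the 10 whose levels ran closest to the mean of the strip genes included 6 of the 21 other strip genes. These were DIR24 (AT3G55230, r = 0.83), PER72 (AT5G66390, 0.82), DIR9 (AT2G39430, 0.79), UCC1 (AT2G32300, 0.78), LAC3 (AT2G30210, 0.76) and DIR18 (AT4G13580, 0.74). The list of 21 was chosen with earlier results of these data known, so this overlap is not independent of them. The other 4 of the 10 were not on that list, and whether they act in the strip was not examined. They were AT3G24020 (0.77), AT5G17820 (0.76), RHS16 (AT4G29180, 0.70), a gene named as root hair specific, and AT2G23540 (0.70). Taken singly, CASP1 ran closest to PER72 (0.87), PER64 to CASP1 (0.76), GSO1 to CYP86A1 (0.74), CASP2 to AT5G61550 (0.66), CASP4 to PER64 (0.65) and MYB36 to AT2G22300 (0.58).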

How the data were processed

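RNA-seq counts of whole seedlings were analysed. Libraries were poly(A)-selected and kept no strand, per the labels' protocols. The authors deposited 1 table of raw counts (whole numbers, no normalization) for 27206 loci and 72 libraries. Per the submitters' processing notes, the build was TAIR10 and the tools were HTSeq 0.6.1p1, TopHat2 2.1.1, cutadapt 1.3 and CASAVA 1.8, with no roles given; how HTSeq treated overlapping genes is not given in the sources used here.

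In R 4.3.3, edgeR 4.0.16 kept genes by filterByExpr (minimum count 10), which left 18693, scaled libraries by TMM and fitted 1 robust quasi-likelihood model with a term per group and 1 for the experiment to 71 libraries. The common biological coefficient of variation was 0.173. P-values were adjusted by Benjamini-Hochberg within each comparison over all genes tested, with a threshold of 0.05. CPM are counts scaled by the TMM library size, and correlations used log2 CPM with a prior count of 2. The code was tested on simulated data. DESeq2 1.42.0 and the other alternatives are in the closing section. Promoters, exons and coding sequences were read from the TAIR10.1 assembly with Biopython 1.88.

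The genes and lists were chosen with earlier results of these data known. Of the 9 genes the rule chose, 1 is not reported here. Named are the other 8, up to 4 called genes of largest change per list and comparison, and those most like the set. The labels call the libraries biological replicates of 2 experiments without saying that cultures were separate, so p-values reflect only how far these samples spread. Any 2 libraries of a group differed by more than sampling noise (chi-square per degree of freedom at least 1.73 in 175 pairs).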

Additional observations from a re-analysis of the deposited data

Results flagged for a closer look

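In 2 of 72 groups of 5 or 6 libraries (6 genes in 12 groups), 1 library stood far from the others, where chance alone flags about 1 group in 20. CASP4 in phr1 phl1 high Pi untreated replicate B3 was the lowest of its group at 1.58 CPM, with the nearest at 4.63 CPM. PER64 in the same library was the lowest of its group at 9.99 CPM, with the nearest at 15.0 CPM.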

How the results depend on the processing

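With both experiments, 3 MeJA, 4 flg22, 2 low Pi and 1 genotype call were made among the strip genes, plus 10 in the averages. Changing to RLE size factors, no count filter or all 72 libraries kept all 20 calls (no filter added CASP5 in the MeJA average, which made 11), DESeq2 kept them and added 1, and none of the 198 gene and comparison pairs reversed a call. Experiment A alone gave 3 MeJA calls (MYB36 up in Col-0 at high Pi, CASP2 down in Col-0 at low Pi and in phr1 phl1 at high Pi, of which the second was also called with both experiments), 1 flg22, 6 low Pi and 3 genotype calls and 14 in the averages. Experiment B alone gave 1 MeJA, 0 flg22, 0 low Pi and 0 genotype calls and 3 in the averages. Calls over all genes differed as well. In untreated Col-0, low Pi called 6390 of 18913 genes in experiment A alone and 105 of 18792 in experiment B alone. The averaged flg22 response called 5095 and 1360 genes, and the averaged MeJA response 5602 and 6400. Each experiment has 3 libraries a group, less the library left out, and the cause was not tested. With the replicate block (the labels A1 to B3), 3 MeJA, 4 flg22, 2 low Pi and 1 genotype call and 10 in the averages were made, and all 20 calls were kept. The numbers did not pair the libraries, since in 0 of 20 comparisons did every same-numbered pair correlate above 0.1, with a median of 0.021. Without the experiment term, PER64 with flg22 in Col-0 at low Pi was lost (adjusted p = 0.054). Leaving out single libraries gave 0 to 4 flg22, 1 to 4 low Pi and 0 to 1 genotype calls, 2 to 4 for MeJA, and 10 in the averages each time. CASP1 and CASP2 with MeJA in Col-0 at low Pi and CASP2 at low Pi stayed called throughout. Calls lost, with the highest adjusted p, were as follows. CASP1 with MeJA in Col-0 at high Pi (0.12) was lost without untreated A2, B1 or B3 or MeJA A1, A2, B2 or B3. With flg22 in Col-0 at low Pi, CASP1 (0.11) and PER64 (0.12) were lost without untreated A1, A2, A3 or B1 or flg22 A2, B1, B2 or B3, CASP2 (0.083) without untreated A2 or flg22 B1 or B2, and CASP4 (0.074) without untreated A1 or A2 or flg22 A3 or B1. CASP4 at low Pi in untreated Col-0 (0.090) was lost without high Pi A1 or A3 or low Pi A1, A2 or B1. CASP4 between genotypes (0.11) was lost without Col-0 A1 or phr1 phl1 A1, A2 or B1. CASP5 and ESB1 rested on the fewest reads, no more than 8 per library, and whether ESB1 lost reads in counting was not tested.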
